A study of Homo sapiens with 32 samples.

Results

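Desmosomes join neighbouring cells and tie their intermediate filaments to the plasma membrane, and 10 genes for their parts (DSG2, DSC2, DSC3, DSP, JUP, PKP1, PKP2, PKP3, PKP4 and PERP) were followed here across Ewing sarcoma cell lines. They were looked up by symbol among the 28278 gene symbols of the count tables and by Ensembl gene in the knockdown table, and all 10 were found in both. The set was chosen by the DSG2 counts, which in earlier results of these data were near 0 in control A673 cells and high after KO of EZH2 or SUZ12. The levels of DSG2 in those groups are therefore a description and were not tested against controls or against STAG2 KO. The other 9 are the parts with which a desmoglein is assembled, and the question was whether they followed it.

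RNA-seq had been carried out on 3 Ewing sarcoma lines, A673, A4573 and SK-N-MC. All edited A673 clones (iCas9+STAG2ko, iCas9+EZH2ko, iCas9+SUZ12ko and iCas9+STAG1ko) were derived from an A673 clone with doxycycline-inducible Cas9 at AAVS1 (iCas9, the WT clone), so that its unedited libraries and 1 library of the parental line (WT) served as controls in each of the 3 experiments with clones. Experiment 1 held 3 control and 2 STAG2 KO libraries, experiment 2 held 3 control, 3 STAG2 KO, 3 EZH2 KO and 3 SUZ12 KO libraries, and experiment 3 held 2 control and 3 STAG1 KO libraries, each KO library from a separate clone as labelled. In experiment 4, unedited A673 cells were transfected with siSTAG2 or mock transfected (siC), in 3 libraries each. A4573 cells lack STAG2 and were compared with a knock-in clone in which it was restored (iCas9 against iCas9 +STAG2KI), and SK-N-MC cells were compared with a STAG2 KO clone (iCas9 against iCas9+STAG2ko), with 1 library per arm. Control libraries of experiments 1 to 3 other than the parental ones come from a single clone, and every A673 KO group rests on 2 to 5 clones. The spread behind a p-value is pooled over the libraries of a fit. It therefore mixes differences between KO clones with those between repeat libraries of 1 clone and the parental line. In experiment 4 it is a spread between libraries of transfected cells, without clones. The libraries are of bulk RNA, in which more cells that express a gene and more RNA per cell cannot be told apart.

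A desmosome is built around the desmosomal cadherins, the desmogleins and desmocollins, whose extracellular parts adhere to those of the next cell. Inside the cell they bind the armadillo proteins plakoglobin (JUP) and the plakophilins (PKP1 to PKP4), which in turn hold desmoplakin (DSP), the plakin that attaches keratin or desmin filaments. PERP is a tetraspan membrane protein needed for stable desmosomes in stratified epithelia. Desmosomes are typical of epithelia and heart muscle, whereas Ewing sarcoma is a bone and soft tissue tumour driven by the EWS::FLI1 fusion. EZH2 is the H3K27 methyltransferase of Polycomb repressive complex 2 (PRC2), SUZ12 is a core subunit of the same complex, and STAG2 and STAG1 are alternative subunits of cohesin.

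In hg38 coordinates (GENCODE 44), DSG2 lies on chr18:31498177-31549008, DSC2 on chr18:31058840-31102522 and DSC3 on chr18:30989365-31042815, in a cluster of desmosomal cadherin genes. PKP1 lies on chr1:201283452-201332993, PKP2 on chr12:32790745-32896798, PKP3 on chr11:392614-404908, PKP4 on chr2:158456952-158682879 and JUP on chr17:41754604-41786931. DSP (chr6:7541338-7586714) and PERP (chr6:138088505-138107419) are far apart on the same chromosome. Exons of DSG2, DSP and PKP4 overlap those of an antisense gene, and exons of PKP2 those of ENSG00000274976 on the same strand, and since the libraries were not directional, reads of such partners cannot be told apart.

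Depth was 15734628 to 20663679 counts in the 22 A673 libraries of experiments 1 to 3, 29322507 to 32261248 in the 4 of A4573 and SK-N-MC and 6852340 to 8184632 recovered reads in the 6 of the knockdown. The edited genes fell in most groups. EZH2 mRNA was at 45.8, 55.3 and 28.4 CPM (counts scaled to a common library size) in the EZH2 KO libraries against 172 to 194 CPM in their controls, SUZ12 at 15.9, 11.3 and 20.6 CPM in SUZ12 KO against 60.3 to 67.1 CPM, and STAG2 at 42.4 to 184 CPM in STAG2 KO against 256 to 361 CPM in the controls of experiments 1 and 2. STAG1 was at 61.5, 15.1 and 33.2 CPM in the STAG1 KO libraries against 57.8 and 69.6 CPM, so that the library n1 did not fall below its controls. Of 9 genes known from Ewing sarcoma lines, 8 had at least 10 counts in control, STAG2 KO, EZH2 KO and SUZ12 KO libraries, with summed levels of 5598 to 7161 CPM in the 8 control libraries, 3971 to 5189 CPM in STAG2 KO and 4144 to 4934 CPM in the PRC2 KO libraries. These sums are mostly CAV1 and CCND1, with means of 3489 and 2070 CPM in the controls of experiment 2. Both were lower in EZH2 KO (1651 and 1623 CPM) and in SUZ12 KO (1495 and 1650 CPM). PRKCB went the other way, from 276 to 592 and 731 CPM, so that the markers did not fall together. CD99 was listed at 0 in all 26 libraries counted by symbol. In the A673 knockdown, counted by Ensembl gene, it had 6040 to 6943 recovered reads with siC and 3356 to 4215 with siSTAG2. The values of 0 are therefore not taken as absence of CD99 from the cells. Markers of blood cells summed to 0.477 to 0.733 CPM in A673 controls and 0.763 to 1.81 CPM in PRC2 KO, with CD3E at 0 in all of these libraries. In SK-N-MC they summed to 4.08 to 57.6 CPM. PTPRC there had 99 counts in the library with STAG2 and 1776 in the STAG2 KO library. The part of these markers in the results below was not tested.

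The desmosomal cadherins were all but absent from control A673 cells. DSG2, the desmoglein of simple epithelia and heart, had counts of 0, 0 and 1 in the controls of experiment 2, 1394, 1810 and 1550 in the EZH2 KO libraries (67.2, 98.9 and 74.0 CPM) and 2069, 2336 and 2097 in the SUZ12 KO libraries (101.0, 106.0 and 113.3 CPM). No EZH2 KO or SUZ12 KO library came near a control, and the ratio of CPM to controls was 4045 in EZH2 KO (95% counting interval 726 to 159785) and 5439 in SUZ12 KO (976 to 214858), wide because the controls held 1 count in all. In the 3 STAG2 KO libraries of the same experiment DSG2 had 1 count each. Intervals of this kind cover counting error only.

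DSC2 appeared in the same A673 libraries as DSG2. This desmocollin, the usual partner of DSG2 in simple epithelia and heart, had a count of 0 in each of the 8 control, 5 STAG2 KO and 3 STAG1 KO libraries of A673, and 79, 83 and 28 counts in EZH2 KO (3.81, 4.53 and 1.34 CPM) and 118, 259 and 91 counts in SUZ12 KO (5.76, 11.8 and 4.92 CPM). All 6 PRC2 KO libraries were above all controls. Against a floor of 3 counts over the 3 controls of experiment 2, DSC2 was 53.9-fold higher in EZH2 KO and 130-fold in SUZ12 KO. This floor is assumed, since these controls held 0 counts, and the ratios to it are no minimums. The lower counting bounds of the ratio of CPM to controls were 43.4 in EZH2 KO and 106 in SUZ12 KO. The adjusted p of DSC2 was 0.00199 and 0.000788. DSC2, like DSP and PERP, entered the test only through the PRC2 KO libraries in which it was high, so that its p is a description and no support. DSC3, the desmocollin of basal stratified epithelium, stayed at the limit of detection, with 1, 1 and 0 counts in controls, 3, 15 and 5 in EZH2 KO and 0, 3 and 1 in SUZ12 KO, and did not pass the filter on low counts. Its ratio of CPM to controls was 9.78 in EZH2 KO (2.42 to 85.6) and 1.67 in SUZ12 KO (0.240 to 18.5).

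DSP and PERP were also higher in these libraries, more unevenly. DSP had 3, 3 and 1 counts in controls, 57, 237 and 110 in EZH2 KO (2.75, 12.9 and 5.25 CPM) and 297, 367 and 110 in SUZ12 KO (14.5, 16.7 and 5.94 CPM). PERP had 2, 3 and 1 counts in controls, 507, 1316 and 191 in EZH2 KO (24.4, 71.9 and 9.11 CPM) and 280, 1109 and 208 in SUZ12 KO (13.7, 50.3 and 11.2 CPM). For both genes the KO libraries lay above every control. The ratio of DSP was 49.1 in EZH2 KO (23.6 to 123, adjusted p = 0.00920) and 92.5 in SUZ12 KO (44.7 to 231, adjusted p = 0.00366). For PERP it was 286 (131 to 779, adjusted p = 0.00831) and 223 (102 to 608, adjusted p = 0.00846).

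Among the armadillo proteins only PKP2 rose by a wide margin. PKP2, the plakophilin of heart and simple epithelia, was present in controls with 107, 103 and 201 counts (6.10, 6.61 and 11.2 CPM) and reached 1267, 919 and 1111 in EZH2 KO (61.1, 50.2 and 53.0 CPM) and 933, 1666 and 1373 in SUZ12 KO (45.5, 75.6 and 74.2 CPM). The groups did not overlap, and log2FC was 2.86 ± 0.35 (SE) in EZH2 KO (adjusted p = 0.000464) and 3.10 ± 0.36 in SUZ12 KO (adjusted p = 0.000215). The parental line held more PKP2 than the WT clone in each of experiments 1 to 3 (2.12-, 1.76- and 1.61-fold), and with the WT clone as the only control both calls were kept.

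JUP, PKP1 and PKP4 were already transcribed in control cells and moved little. JUP, which also serves adherens junctions, was at 50.5, 40.5 and 42.3 CPM in controls, 53.7, 62.8 and 44.3 CPM in EZH2 KO and 76.0, 66.2 and 54.3 CPM in SUZ12 KO. Its log2FC was 0.36 ± 0.19 in EZH2 KO (adjusted p = 0.232) and 0.63 ± 0.19 in SUZ12 KO (adjusted p = 0.0372), and the second call was lost when any of 6 libraries was left out or when only the WT clone served as control. PKP1, the plakophilin of stratified epithelia, was by far the most abundant part of the set, at 1091, 989 and 1219 CPM in controls, 867, 989 and 849 CPM in EZH2 KO and 917, 916 and 876 CPM in SUZ12 KO, and these changes did not pass the test (log2FC of -0.20 ± 0.14 and -0.21 ± 0.14). PKP4, a plakophilin relative that is also found at adherens junctions, was at 84.0, 89.7 and 88.2 CPM in controls, 72.6, 75.9 and 53.3 CPM in EZH2 KO and 67.7, 62.8 and 60.9 CPM in SUZ12 KO. All 6 KO values of PKP4 lay below the controls, with log2FC of -0.29 ± 0.14 (adjusted p = 0.197) and -0.38 ± 0.14 (adjusted p = 0.0779). PKP3 had 0, 1 and 1 counts in controls, 4, 7 and 3 in EZH2 KO and 1, 3 and 4 in SUZ12 KO, and was not tested.

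Of the 9 other members, 4 were therefore called higher in EZH2 KO (DSC2, DSP, PKP2 and PERP), where 12% of the 15130 genes tested were called higher and 15.7% were called in all. In SUZ12 KO the same 4 and JUP were called, 5 of 9, where 14.7% of genes were called higher and 20.6% in all. With edgeR 0 members were called lower in either group, where 3.69% and 5.87% of genes were; at an unadjusted p under 0.05 PKP4 alone was lower, in SUZ12 KO, and DESeq2 called 0 members lower. DSG2, DSC2, DSP and PERP passed the filter on low counts only through their PRC2 KO libraries, so that they had to differ in order to be tested, and the counts of called members are given as a description.

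**Figure D1:**
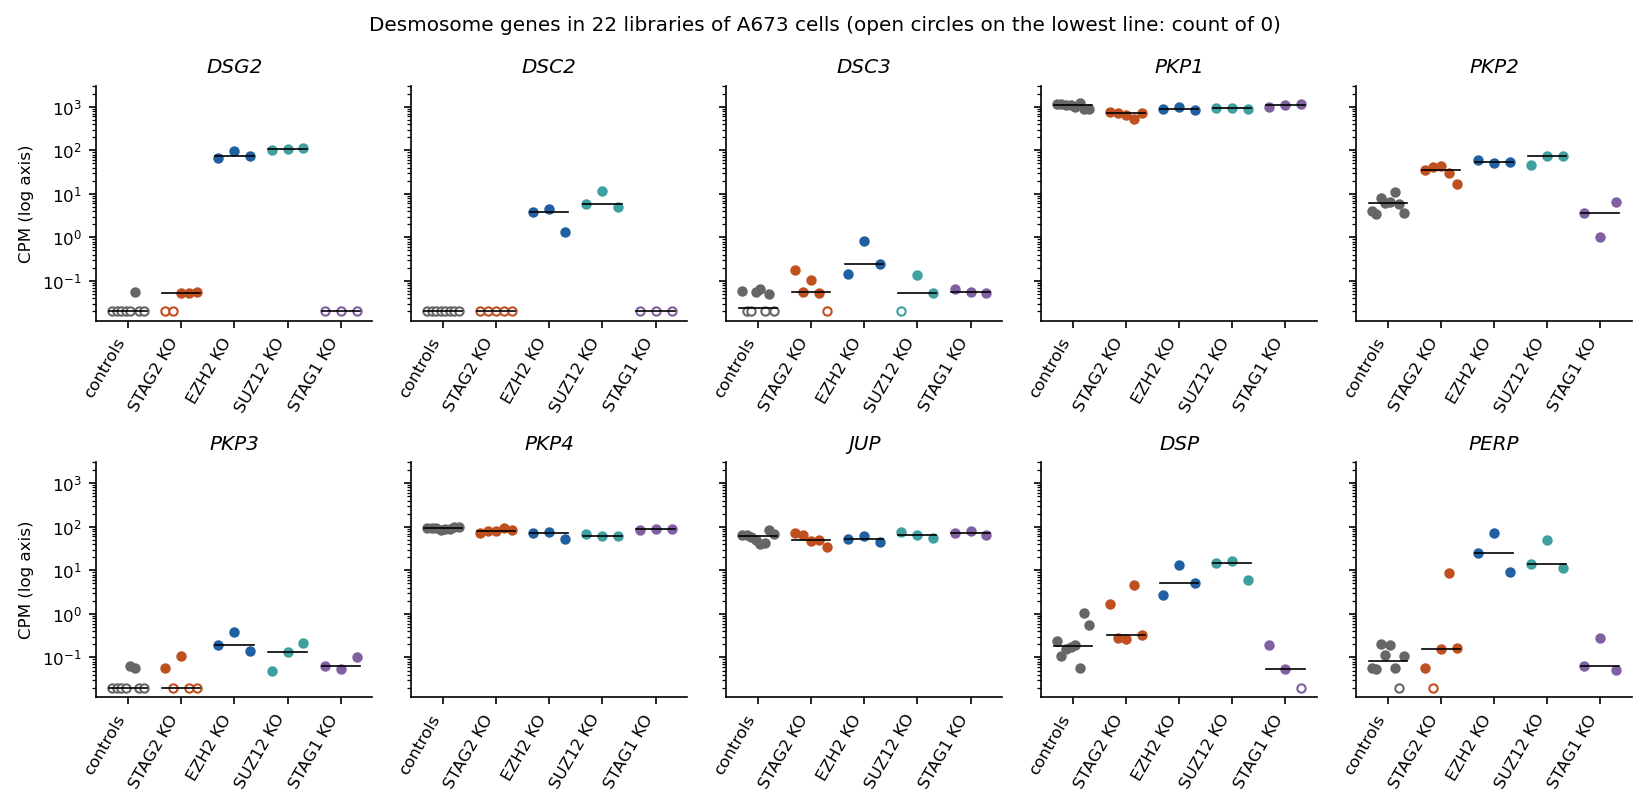
CPM on a log axis of each desmosome gene in the 22 A673 libraries of experiments 1 to 3; each point is a library, the line is the group median, and open circles on the lowest line are counts of 0. DSG2, DSC2, DSP and PERP lie near the floor in the 8 controls and rise in EZH2 KO and SUZ12 KO, PKP2 rises there and in STAG2 KO, and PKP1, PKP4 and JUP are high in every group.

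EZH2 KO and SUZ12 KO were hard to distinguish. Of the 10 members 0 were called between them with edgeR or DESeq2, where edgeR called 1 gene in all (0.00661%). DSG2 alone had an unadjusted p under 0.05, with a log2FC of EZH2 KO over SUZ12 KO of -0.40 ± 0.18 (adjusted p = 0.999). For DSC2 the difference was -1.19 ± 0.57, for DSP -0.80 ± 0.89 and for PERP 0.51 ± 1.10, so that even large differences between the groups could have gone undetected for these genes. Their levels varied widely between the clones of a group. Within EZH2 KO, the highest library exceeded the lowest 1.47-fold for DSG2 and 1.22-fold for PKP2, but 3.39-fold for DSC2, 4.71-fold for DSP and 7.89-fold for PERP. In SUZ12 KO the ratios were 1.12 for DSG2 and 4.48 for PERP. EZH2 KO clone 2 had the highest CPM of the 3 clones for 9 of 10 members, PKP2 being the exception, and SUZ12 KO clone 2 had the highest CPM for 5 of 10 (DSC2, DSC3, DSP, PKP2 and PERP). The share of all genes that were highest in these clones was not counted, and DSC3 and PKP3 are near the limit of detection. These counts are therefore a description and no trait of the set.

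**Figure D2:**
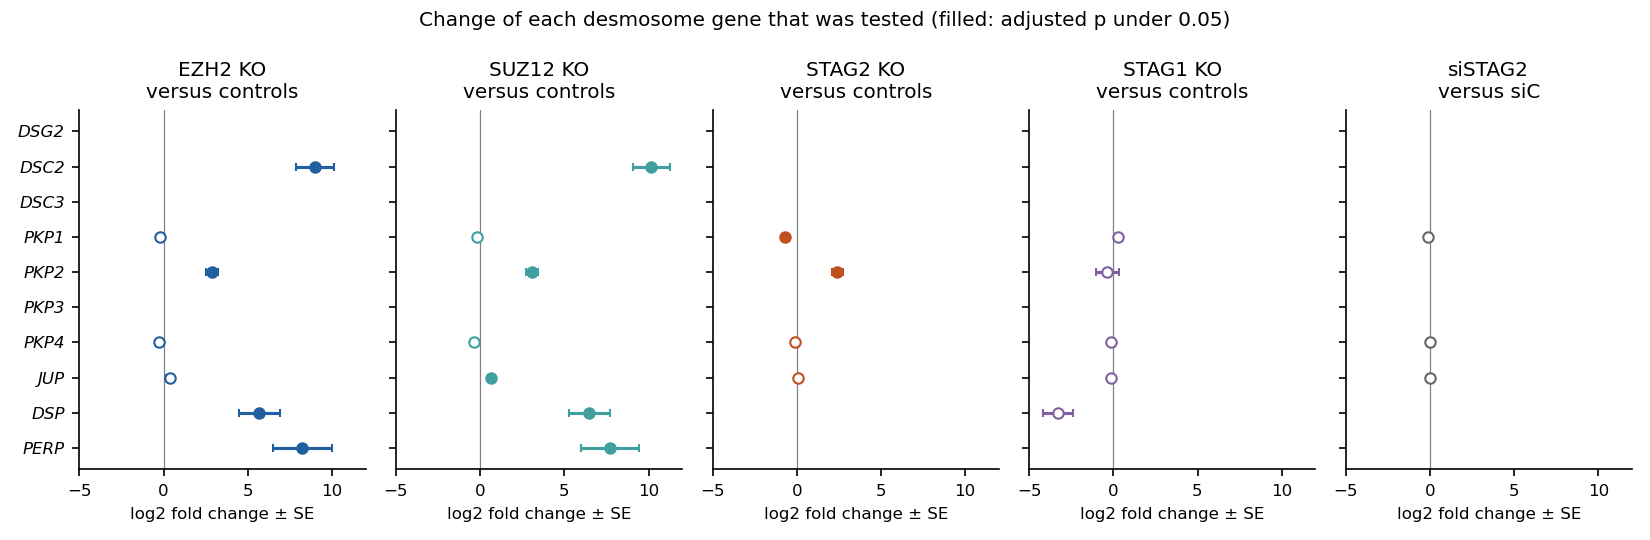
Log2 fold change (x axis, with SE as bars) of each tested desmosome gene (y axis) in 5 comparisons; filled points passed an adjusted p under 0.05, and genes without a point were not tested, or, for DSG2, not tested in the contrasts that chose it. DSC2, DSP, PKP2 and PERP stand to the right in EZH2 KO and SUZ12 KO, and in STAG2 KO only PKP2 (right) and PKP1 (left) are filled. The place of DSC2 depends on the prior count, since its controls are at 0.

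Per length of transcript, the parts did not reach equal levels. With counts divided by the exon length of each gene, control A673 cells held a median of 176 CPM per kb of PKP1, 9.24 of PKP4, 8.55 of JUP and 0.642 of PKP2, and less than 0.03 of every other member. In EZH2 KO the order was PKP1 (140), JUP (10.9), DSG2 (7.79), PKP4 (7.62), PERP (5.82) and PKP2 (5.15), followed by DSP (0.385) and DSC2 (0.305). In SUZ12 KO, DSG2 (11.2) again stood next to JUP (13.4), while DSP (1.06) and DSC2 (0.461) remained more than 10-fold below DSG2. Thus DSG2 reached a level close to that of JUP, whereas its desmocollin partner and desmoplakin stayed low. Libraries primed at the poly(A) tail need not cover long transcripts evenly, and DSP and DSC2 have the longest of the 10 (9697 and 12377 bases).

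The promoters of the genes that went from near absence to expression are shown beside that of PKP1, which was expressed throughout, because CpG-rich promoters are the usual sites of PRC2. The sequences are from RefSeq on GRCh38.p14, cover the 250 bases before the annotated start and are written 5′ to 3′ on the strand of the gene, with every CpG in capitals.
DSG2 (chr18:31497927-31498176, plus strand): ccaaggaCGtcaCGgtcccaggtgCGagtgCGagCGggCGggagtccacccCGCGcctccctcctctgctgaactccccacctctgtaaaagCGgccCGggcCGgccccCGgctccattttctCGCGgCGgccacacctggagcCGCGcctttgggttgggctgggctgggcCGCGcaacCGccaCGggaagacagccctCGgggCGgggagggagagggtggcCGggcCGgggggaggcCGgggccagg
DSC2 (chr18:31102422-31102671, minus strand): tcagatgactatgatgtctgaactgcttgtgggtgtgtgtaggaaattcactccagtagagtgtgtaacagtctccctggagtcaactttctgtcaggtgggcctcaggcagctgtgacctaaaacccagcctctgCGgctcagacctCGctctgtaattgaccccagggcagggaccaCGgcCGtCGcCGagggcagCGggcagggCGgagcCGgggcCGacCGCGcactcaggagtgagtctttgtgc
DSP (chr6:7541421-7541670, plus strand): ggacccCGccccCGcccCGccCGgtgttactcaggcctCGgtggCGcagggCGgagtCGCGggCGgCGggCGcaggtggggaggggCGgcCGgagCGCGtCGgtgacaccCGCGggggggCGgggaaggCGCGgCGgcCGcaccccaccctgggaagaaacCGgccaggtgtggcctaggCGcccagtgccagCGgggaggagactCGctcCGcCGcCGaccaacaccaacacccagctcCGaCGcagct
PERP (chr6:138107420-138107669, minus strand): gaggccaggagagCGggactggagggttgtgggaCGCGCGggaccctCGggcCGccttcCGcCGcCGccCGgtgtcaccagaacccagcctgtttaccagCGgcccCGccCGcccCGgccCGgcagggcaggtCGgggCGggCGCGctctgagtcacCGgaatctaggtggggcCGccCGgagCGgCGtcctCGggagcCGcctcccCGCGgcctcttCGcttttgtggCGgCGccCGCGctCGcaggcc
PKP1 (chr1:201283256-201283505, plus strand): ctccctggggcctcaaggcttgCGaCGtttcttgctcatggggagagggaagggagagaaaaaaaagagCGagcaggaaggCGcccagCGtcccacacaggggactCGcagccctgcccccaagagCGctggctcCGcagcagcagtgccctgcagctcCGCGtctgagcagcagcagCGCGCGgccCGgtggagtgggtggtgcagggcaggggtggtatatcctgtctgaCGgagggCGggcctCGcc
In the 300 bases from 250 before to 50 after the start, DSG2 has 36 CpG dinucleotides, DSC2 15, DSP 37, PERP 43 and PKP1 19, where the median of 27305 promoters is 14. DSC3 has 25, JUP 23 and PKP4 31. No promoter was available for PKP2, which also rose, or for PKP3. Among the 8 with a promoter, DSC2 rose and lies near the median, and PKP4 did not rise and has 31. The part of CpG density in these changes was not tested. The letters CACCTG, the E-box bound by SNAIL and ZEB repressors, were searched on both strands in the same windows and occur 2 times at DSG2 and DSP and 1 time at DSC2, and not at the other 5 members with a promoter in the table; 20.6% of all promoters hold them. A match of letters is a description and not a bound site, and histone marks were not part of these files.

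The chromosome 18 cluster was not raised as a whole. Within 500 kb of the DSG2 start, the desmocollin DSC1 had 0 to 1 counts in controls, 4 to 36 in EZH2 KO and 1 to 13 in SUZ12 KO. It was called in EZH2 KO (log2FC = 4.61 ± 1.22, adjusted p = 0.0317) and not in SUZ12 KO (adjusted p = 0.136), which is no test of a difference between these groups. With 0 counts in STAG2 KO, DSC1 entered the test only through the PRC2 KO libraries, so that its p is a description. DSG1 and DSG4, desmogleins of skin and hair, had at most 2 counts in any library of experiment 2, and DSG3, whose start lies at -50.4 kb from that of DSG2, had 1 to 6 counts in controls, 2 to 9 in EZH2 KO and 2 to 9 in SUZ12 KO. TTR, at 58.8 kb, had 0 counts in all 12 libraries. DSG2 and DSC2, the latter at -395.7 kb, thus had the highest counts among the cadherins of the cluster, up to 2336 and 259 in a library. DSC1 reached 36 and DSC3 15, both in EZH2 KO.

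B4GALT6, a galactosyltransferase of glycolipid synthesis whose start lies 187.7 kb from that of DSG2, was picked out after its values were seen. It had 3 to 23 counts in controls, 86 to 281 in EZH2 KO and 184 to 350 in SUZ12 KO, and 313 to 858 in the STAG2 KO libraries, where DSG2 had 1. It was called in EZH2 KO (log2FC = 3.75 ± 0.64, adjusted p = 0.00268), in SUZ12 KO (4.41 ± 0.65, adjusted p = 0.000869) and in STAG2 KO over experiments 1 and 2 (4.08 ± 0.98, adjusted p = 0.0202). TRAPPC8, at the far edge of the window, had 1146 or more counts in every library and was called in none of the 3 comparisons.

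**Figure D3:**
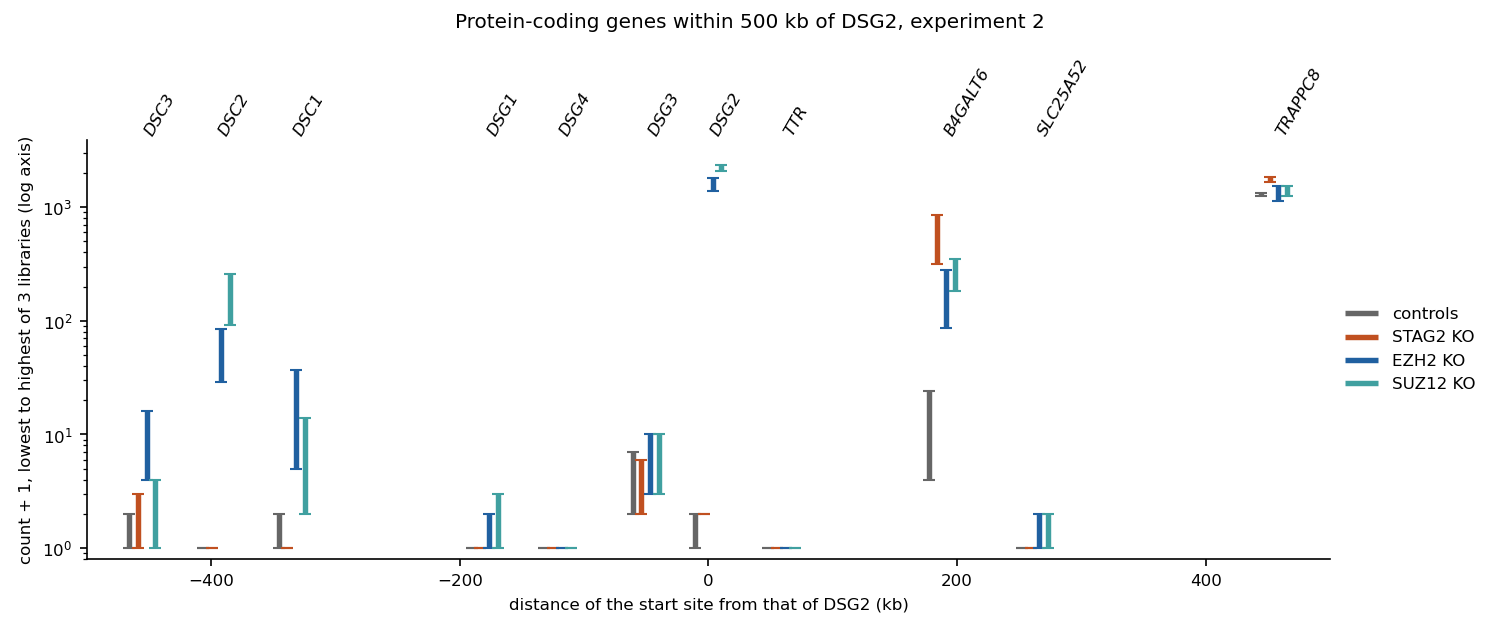
Counts + 1 (log axis, lowest to highest of the 3 libraries of each group in experiment 2) of the protein-coding genes within 500 kb of DSG2, placed by the distance of their start sites, with groups offset sideways for legibility. DSG2 and DSC2 rise in EZH2 KO and SUZ12 KO, DSG1, DSG4 and DSG3 stay at or below 9 counts, and B4GALT6 is above its controls in all 3 KO groups.

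The log2 CPM of DSG2 over the 22 A673 libraries was compared with that of 15129 other genes. The likeness mainly describes a switch between 2 states in the 6 PRC2 KO libraries, by which the rule chose DSG2. Among the members, DSC2 ranked 25th by Pearson correlation (0.985), PERP 228th (0.915), DSP 497th (0.846) and PKP2 1035th (0.720), whereas JUP (-0.01), PKP1 (-0.06) and PKP4 (-0.82) did not follow it. By Spearman correlation the 5 closest genes were ABCB1, SGCZ, EPB41L4A, GUCY1A1 and TCF15 (0.930 to 0.892).

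Lists of related genes, which were put together with earlier results of these data known and which are subject to the same filter, are given as counts and values. Of 9 keratins of epithelia, the filaments that desmosomes anchor, 3 were tested and 2 were called higher in both PRC2 KO groups, where 12% and 14.7% of all genes were. KRT8, a keratin of simple epithelia, went from 26.4 to 38.7 CPM in controls to 284 to 492.6 CPM in EZH2 KO and 173 to 874 CPM in SUZ12 KO (log2FC = 3.73 ± 0.47 and 4.04 ± 0.48, adjusted p = 0.000549 and 0.000252), and KRT17 was also called in both (adjusted p = 0.00815 and 0.00454). KRT17 was at 9.65 to 30.7 CPM in the controls of experiment 2 and at 77.9 to 170 CPM in the PRC2 KO libraries, but controls of experiment 1 reached 68.1 CPM. KRT18, the usual partner of KRT8, was not called (log2FC of 0.46 and 0.11). Of 7 plakins and other plaque proteins, 5 were tested, and PPL and NECTIN1 were called higher and DST and MACF1 lower in both groups, where 3.69% and 5.87% of all genes were called lower. PPL is a plakin of stratified epithelia (log2FC in SUZ12 KO of 2.59 ± 0.74), NECTIN1, an adhesion molecule of cell junctions, rose by 1.21 and 1.28 on the log2 scale, and DST, whose epithelial form anchors keratin at hemidesmosomes, fell by 1.17 and 1.26.

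The classical cadherin CDH2, which forms adherens junctions in mesenchymal and neural cells, moved the other way. It was at 130 to 154 CPM in controls, 12.7 to 18.4 CPM in EZH2 KO and 4.81 to 14.1 CPM in SUZ12 KO (log2FC = -3.18 ± 0.38 and -3.65 ± 0.39, adjusted p = 0.000416 and 0.000148), without overlap. Of the 12 adherens junction genes, 10 were tested, of which 1 was called higher and 2 lower in EZH2 KO and 2 higher and 3 lower in SUZ12 KO. Of all genes 12% and 14.7% were called higher and 3.69% and 5.87% lower, and the 10 had medians of -0.19 and -0.14 beside 0.04 and 0.01 over all genes. VCL, which links catenins to actin, was lower in both (log2FC = -1.26 and -1.45), and CTNND2, a neural catenin, higher in both (6.50 and 6.62).

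Of 11 surface and tight junction genes of epithelia, 8 were tested, and CLDN4, CLDN7, ST14 and SFN were called higher and MARVELD3 lower in both groups, beside 12% and 14.7% of all genes called higher and 3.69% and 5.87% lower. EPCAM was called in SUZ12 KO (log2FC = 3.52 ± 0.98, adjusted p = 0.0248) and not in EZH2 KO (1.32 ± 1.04, adjusted p = 0.419), and the difference between the groups was not called. The summed level of this list was 9.87 to 11.9 CPM in controls, 8.87 to 14.6 CPM in EZH2 KO and 9.13 to 17.9 CPM in SUZ12 KO. Among 12 regulators of epithelial genes, GRHL1 and ESRP1 were called higher and KLF5 lower in both groups, while GRHL2, a regulator of epithelial junction genes, had 0 counts in every control and EZH2 KO library and at most 1 in SUZ12 KO. Of 7 repressors of epithelial junction genes, ZEB1 (log2FC = 2.73 ± 0.82 and 3.03 ± 0.82) and TWIST2 (5.35 and 6.56) were called higher and ZEB2 lower (-0.38 and -0.48). DSG2, DSC2 and ZEB1 were thus raised in the same libraries. In controls ZEB1 was at 3.42 to 4.04 CPM and ZEB2 at 130 to 147 CPM. The summed level of the 7 was 353 to 407 CPM in controls, 283 to 328 CPM in EZH2 KO and 323 to 326 CPM in SUZ12 KO. The part of these repressors was not tested. The 6 markers of heart muscle, another tissue rich in desmosomes, summed to 29.4 to 40.5 CPM in controls and 24.2 to 42.8 CPM in the PRC2 KO libraries, and 0 were called higher in either group with edgeR.

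With the filter on low counts, 2 members were called in STAG2 KO. In the STAG2 KO libraries of experiments 1 and 2 (5 libraries, titled as 5 clones, against 6 controls) PKP2 rose and PKP1 fell, and DSG2 and DSC2 did not appear. PKP2 was at 36.02 and 40.6 CPM in the KO libraries of experiment 1 and at 43.5, 29.6 and 16.9 CPM in those of experiment 2, against 3.45 to 11.2 CPM in the controls (median 6.35). All KO libraries lay above all controls, with a log2FC of 2.40 ± 0.33 (adjusted p = 0.000945), and PKP2 was called in each experiment alone. PKP1 was at 740.4, 707, 649, 532 and 726 CPM in the KO libraries against 989 to 1219 CPM in the controls (median 1132), again without overlap (log2FC = -0.69 ± 0.10, adjusted p = 0.00134). In experiment 2 alone PKP1 kept its direction (-0.74 ± 0.17) but was not called (adjusted p = 0.0579). Of the 13574 genes tested 6.67% were called higher, 5.76% lower and 12.4% in all, and of the 10 members 1 was called in each direction.

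JUP (log2FC = 0.08 ± 0.12) and PKP4 (-0.12 ± 0.09) were not called in STAG2 KO. The remaining 6 members did not pass the filter on low counts. DSG2 had 0 and 0 counts in the KO libraries of experiment 1 and 1 in each of experiment 2, DSC2 had 0 in all 5, DSC3 0 to 3 and PKP3 0 to 2. The difference in response between experiments 1 and 2 was called for 0 of the 4 tested members (adjusted p of the interaction 0.161 to 0.899). PKP4 alone had an unadjusted p under 0.05 (0.0483), with a log2FC of -0.31 in experiment 1 and 0.01 in experiment 2.

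DSP and PERP divided the STAG2 KO clones. DSP had 29 and 5 counts in the KO libraries of experiment 1 and 5, 90 and 6 in those of experiment 2. The 6 controls of these experiments had 1 to 4 counts, and all 5 KO libraries lay above them. The controls of experiment 3, which are not part of this comparison, had 22 and 10 counts (1.07 and 0.544 CPM). These lie above the KO libraries with 5 or 6 counts (0.264 to 0.333 CPM). Without the filter on low counts DSP was called (log2FC = 3.15 ± 0.83, adjusted p = 0.0339), and it was still called without the library of 90 counts (1.95 ± 0.58, adjusted p = 0.0285). PERP had 1 and 0 counts in the KO libraries of experiment 1 and 3, 166 and 3 in those of experiment 2, against 1 to 4 in the controls, and was not called without the filter (2.84 ± 1.46, adjusted p = 0.316; without the library of 166 counts -0.27 ± 0.76, adjusted p = 0.838). The counts of 90 and 166 belong to the library labelled clone 5 of experiment 2. The experiment 1 library with 29 counts of DSP also carries the number 5 in its column name, although the titles of that experiment give other clone numbers, so that whether these are separate clones could not be checked. In the library labelled clone 5 of experiment 2, DSP was 34.5 times (16.1 to 88.2) the level of the controls of experiment 2. PERP there was 74.2 times (33.4 to 205) its level in the same controls, while DSG2 had 1 count and DSC2 0. The same library also held 144 counts of ESRP1, a splicing factor of epithelial cells, against 0 and 1 in the other clones of experiment 2, 571 of ZEB1 against 50 and 34, and 230 of CDH3, a classical cadherin of epithelia, against 21 and 9. The PRC2 KO libraries held 36 to 121 counts of ESRP1 and 425 to 665 of ZEB1, but KRT8, which rose in them, was at 10.3 CPM in clone 5, close to the other STAG2 KO clones of experiment 2. These genes were picked out after their values were seen, and with a single clone there is no test.

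Set directly against STAG2 KO within experiment 2, the PRC2 KO groups held more DSC2 and PKP1. In EZH2 KO, 2 of 9 members were called higher than in STAG2 KO (DSC2 and PKP1, where 12.4% of genes were called higher, 8.04% lower and 20.4% in all). In SUZ12 KO 4 of 9 were called higher (DSC2, JUP, PKP1 and PKP2, where 14.5% of genes were called higher, 11.2% lower and 25.8% in all). PKP1 was higher by 0.53 ± 0.14 and 0.51 ± 0.14 on the log2 scale (adjusted p = 0.0224 and 0.0218), and PKP2 by 0.89 ± 0.33 (adjusted p = 0.0771) and 1.12 ± 0.33 (adjusted p = 0.0270). DSP and PERP were not called in either comparison, with adjusted p of 0.0528 to 0.162, and without clone 5 both were called in either comparison, which gave 4 of 9 and 6 of 9 members. These comparisons share the STAG2 KO libraries. DSC2, DSP and PERP were tested only through the PRC2 KO libraries in which they were high, so that these counts of called members are a description. Counts of members called lower were 0 in both with edgeR, 1 member in each (PKP4) having an unadjusted p under 0.05, and with DESeq2 1 member was called lower in SUZ12 KO.

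After KO of STAG1 or knockdown of STAG2, 0 members were called. In experiment 3, 5 members were tested and 0 of 10 were called with edgeR or DESeq2, where 2.77% of 14373 genes were called higher, 2.50% lower and 5.27% in all, and PKP1 (higher) and DSP (lower) had an unadjusted p under 0.05. PKP1 was at 972, 1084 and 1155 CPM in STAG1 KO against 909 and 877 CPM in the controls, without overlap (log2FC = 0.26 ± 0.10, adjusted p = 0.183). DSP had 3, 1 and 0 counts in STAG1 KO against 22 and 10 in the controls (log2FC = -3.31 ± 0.88, adjusted p = 0.0860), without overlap, and was called without the library n1, in which STAG1 was within the range of its controls (-4.62 ± 0.98, adjusted p = 0.0490). The control counts of DSP in this experiment are above the 1 to 4 counts of the controls of the other experiments. PKP2 had 58, 19 and 128 counts against 122 and 68. DSG2 and DSC2 had 0 counts in all 5 libraries.

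In the knockdown, STAG2 fell by 2.72 ± 0.09 on the log2 scale. The deposited values of PKP1, which are reads divided by a factor per library, were 7001, 6563 and 6795 with siC and 6462, 6119 and 6235 with siSTAG2, lower in all 3 (log2FC = -0.11 ± 0.05, adjusted p = 0.149). Of the 10 members 3 passed the filter (JUP, PKP1 and PKP4) and 0 were called with limma or with edgeR on the recovered reads, where 9.54% of 12060 genes were called higher, 11% lower and 20.5% in all, and PKP1 alone had an unadjusted p under 0.05. PKP2 was listed at 7.62, 8.33 and 11.8 with siC and at 13.0, 7.77 and 9.66 with siSTAG2. The groups overlapped, and with 7 to 14 recovered reads per library small changes were not detectable. DSP had 1 to 3 recovered reads in each library, and PERP had 1, 3 and 0 with siC and 5, 2 and 6 with siSTAG2.

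DSG2 was expressed in A4573 and near 0 in SK-N-MC. In A4573 cells, which have no edited PRC2 gene, DSG2 had 1815 counts without STAG2 (57.1 CPM, 95% Poisson interval 54.5 to 59.7) and 3184 with STAG2 restored (99.4 CPM, 96.0 to 103). The first value lies below and the second within the 67.2 to 113.3 CPM of the A673 PRC2 KO libraries. In SK-N-MC it had 7 counts in each library (0.204 and 0.223 CPM). The A4573 library without STAG2 therefore held 280 times (135 to 696) the DSG2 of unedited SK-N-MC. DSC2 had 3 and 0 counts in A4573 and 0 and 0 in SK-N-MC, so that in A4573 DSG2 was expressed without DSC2. These are single libraries, and differences between them have no replicate check.

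Other parts also differed between the lines by orders of magnitude. PKP1 was at 188 and 239 CPM in A4573 without and with STAG2 and at 3.27 and 2.93 CPM in SK-N-MC with and without STAG2, against 877 to 1219 CPM in A673 controls. DSP was highest in SK-N-MC, with 1047 and 1142 counts (30.5 and 36.4 CPM), and PERP was at 25.0 to 52.9 CPM in all 4 libraries, against at most 0.209 CPM in the A673 controls of experiments 1 to 3. JUP and PKP4 were high in every line. Per kb of exon, SK-N-MC held JUP (38.8), PKP4 (9.68), PERP (6.38) and DSP (2.24) with no cadherin of the set above 0.03, and A4573 with STAG2 held PKP1 (38.5), JUP (21.7), PKP4 (11.2), DSG2 (10.5) and PERP (8.39) with little DSP (0.0733). In A673 controls PKP1, PKP4 and JUP were present without DSG2, DSP or PERP.

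**Figure D4:**
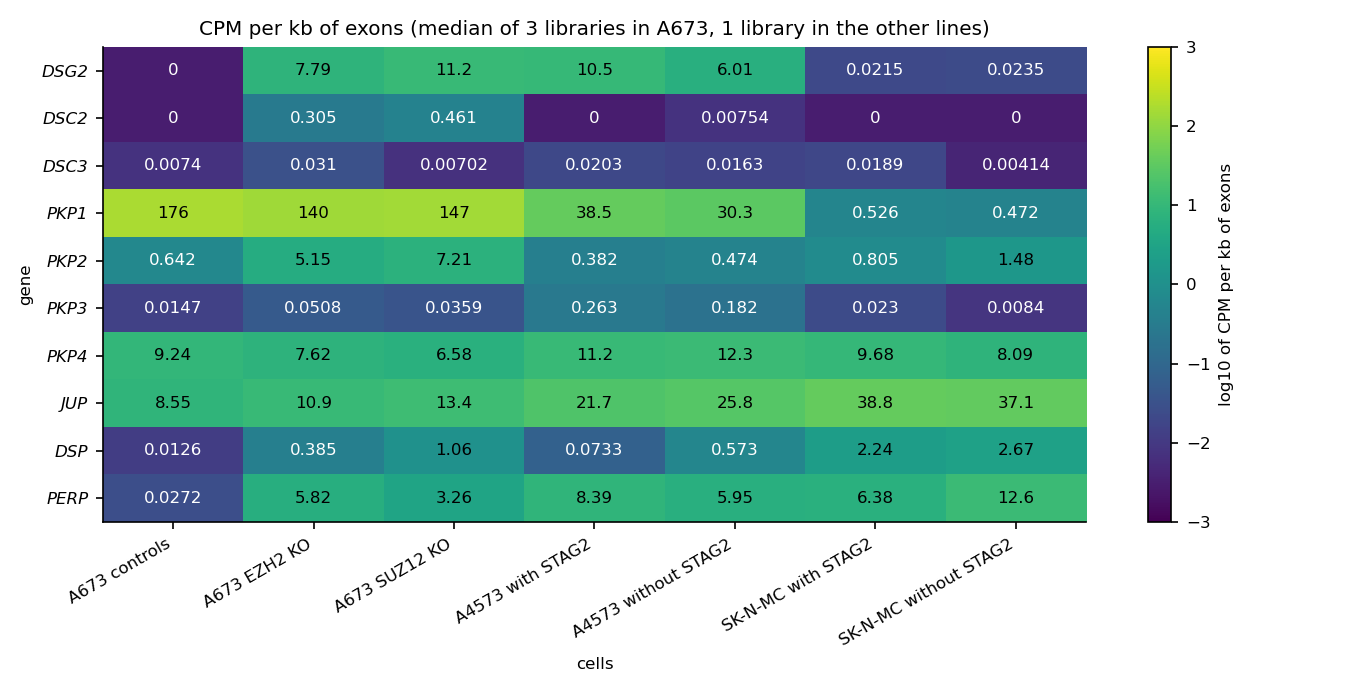
CPM per kb of exons of each desmosome gene (rows) in 7 kinds of cells (columns), as the median of 3 libraries in A673 (experiment 2) and as 1 library in A4573 and SK-N-MC; the colour is the log10 of the printed value. DSG2 is high in A673 EZH2 KO and SUZ12 KO and in A4573, PKP1 is high in A673 and A4573 and low in SK-N-MC, and DSC2 is above 0.3 only in the A673 PRC2 KO groups.

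Within each pair of lines, the members did not share a direction. Without STAG2, DSP was 7.81 times (5.39 to 11.7) the level with STAG2 in A4573, with 248 against 32 counts, and 1.19 times (1.10 to 1.30) in SK-N-MC. DSG2 was lower without STAG2 in A4573 (0.574 times, 0.542 to 0.608) and had too few counts in SK-N-MC (1.09 times, 0.327 to 3.65). PERP was 1.98 times (1.82 to 2.14) the level with STAG2 in SK-N-MC and 0.708 times (0.646 to 0.776) in A4573. PKP2, which was called higher in the A673 STAG2 KO clones, was 1.84 times (1.58 to 2.13) as high in SK-N-MC and 1.24 times (0.973 to 1.58) in A4573, while PKP1 was 0.787 times (0.761 to 0.814) in A4573 and 0.898 times (0.674 to 1.19) in SK-N-MC. A 2-fold rise was passed by DSP in A4573 and by 0 members in SK-N-MC, where 6.91% and 10.1% of genes passed it. EZH2 mRNA also differed within the pairs, at 113 CPM without and 42.0 CPM with STAG2 in A4573 and at 239 and 348 CPM in SK-N-MC, and its part in these values was not tested.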

How the data were processed

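The members and the gene lists were chosen with earlier results of these data known. Per the labels and the methods of the study, libraries were primed with oligo(dT), did not keep strand and were read from a single end over 86 nt. The authors mapped the reads to hg38 with SAMtools 0.1.16 and TopHat 2.0.0, which ran on version 0.12.7 of Bowtie, with up to 2 mismatches and 5 multi-hits, and the counting program is not given in the sources used here. The authors deposited counts, listed by gene symbol, for all experiments but the knockdown, whose deposited values are a signal, reads per Ensembl gene divided by 1 factor for each library. Whole reads were recovered for 100% of its values (tolerance 1e-06). Columns left out numbered 0. The deposited columns of 2 STAG2 KO libraries of experiment 1 and of the STAG1 KO libraries could be tied to their group, not to a clone.

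Counts were tested in R 4.3.3 with edgeR 4.0.16 (TMM, filterByExpr, quasi-likelihood test): the 12 libraries of experiment 2 in 1 fit for EZH2 KO, SUZ12 KO and STAG2 KO against each other and for the first 2 against controls, the 11 libraries of experiments 1 and 2 with experiment as a term for STAG2 KO, and the 5 of experiment 3 for STAG1 KO. Knockdown values were tested with limma 3.58.1 (lmFit, eBayes with trend) on log2(value + 1) for genes with a mean of at least 10, so that fold changes of low genes are understated. Benjamini-Hochberg adjusted p-values are over all genes of a fit, and genes were called under 0.05. CPM use a TMM scaling over 26 libraries. Libraries of 1 per arm were compared without a test. Levels per kb use the union of exons in GENCODE 44. Counting intervals are 95% exact Poisson or binomial intervals. Genes were named by a rule: all members, the edited genes, up to 4 genes per list called in the same direction in EZH2 KO and SUZ12 KO, up to 2 called in STAG2 KO and the 5 most like DSG2 (those by Pearson correlation are not reported here); others are said to be chosen after their values were seen. The fits were tested on simulated data. Alternatives were DESeq2 1.42.0, RLE size factors, library size only, no filter, the WT clone as the only control, only the groups compared, no experiment term, each experiment alone, other pseudocounts and minimums, recovered reads, a replicate block and leaving out each library. In experiment 1 the pair of WT clone libraries had a mean chi-square of 1.33 per gene, against 9.41 to 140 for other pairs of a group; both were kept, and they were summed in an alternative.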

Additional observations from a re-analysis of the deposited data

Results flagged for a closer look

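PERP in the library labelled clone 5 of experiment 2, at 8.72 CPM, was far from the other 4 STAG2 KO libraries, of which the next highest was at 0.167 CPM. The gap took 0.981 of the range of the 5 libraries, beyond the critical value of 0.71. Of 10 sets of libraries examined in this way (each member with at least 10 counts in a library, controls and STAG2 KO of experiments 1 and 2) this was the 1 set that stood out, and chance marks about 1 in 20.

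Between the isogenic pairs, 3 members had counting intervals on opposite sides of no change. PERP was 1.98 times as high without STAG2 in SK-N-MC and 0.708 times in A4573. JUP was at 0.956 times in SK-N-MC and 1.19 times in A4573, and PKP4 at 0.835 times and 1.09 times. These intervals cover counting error only, and the share of all genes with such opposite intervals was not counted. Separate KO clones of 1 genotype in A673 had a mean chi-square of 18.3 to 140 per gene, so that they differed by more than counting error. With 1 library per arm the difference between the lines was not tested.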

How the results depend on the processing

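The log2FC of the called members kept their direction in all alternatives run. Of 306 values of 17 member results, 276 stayed on the same side of the threshold and 30 lost the call, the latter all for JUP, PKP1 and PKP2. PKP2 kept its calls in EZH2 KO and SUZ12 KO against controls. DSC2, DSP and PERP did too, but they are tested only because they were high in these libraries, so that this is no sign of stability. JUP in SUZ12 KO lost its call with the WT clone as the only control (adjusted p = 0.118) and without any of 6 libraries (0.0551 to 0.142). With only the 2 groups compared in the fit, 1 member (PKP4) was called lower in SUZ12 KO than in controls, and 1 each was called higher in EZH2 KO and in SUZ12 KO than in STAG2 KO. With DESeq2, 4 members were called higher in EZH2 KO than in STAG2 KO and 1 (PKP4) lower in SUZ12 KO. For STAG2 KO, 2 members were called higher without the filter (PKP2 and DSP), and 2 also without clone 5, a setting chosen after seeing the data, and 0 were called lower in experiment 2 alone.

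Leaving out each library in turn gave 0 to 1 members lower in SUZ12 KO than in controls (1 without EZH2 KO clone 3 or STAG2 KO clone 5). It gave 1 to 4 higher in EZH2 KO than in STAG2 KO (1 without EZH2 KO clone 2, 4 without STAG2 KO clone 5) and 1 to 6 higher in SUZ12 KO than in STAG2 KO (1 without SUZ12 KO clone 2, 2 without SUZ12 KO clone 1 or STAG2 KO clone 3 or 2, 6 without STAG2 KO clone 5). Members lower in SUZ12 KO than in STAG2 KO numbered 0 to 1 (1 without EZH2 KO clone 2 or 3), and those lower in STAG1 KO 0 to 1 (1 without n1). The cause of these changes was not tested.

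Counts of calls over all genes moved more: EZH2 KO from 2377 to 1441 with the WT clone only, STAG2 KO from 1687 to 3663 in experiment 1 alone, 494 in experiment 2 alone and 4255 without filter and clone 5, STAG1 KO from 757 to 1914 with DESeq2 and the PRC2 KO groups against STAG2 KO from 3091 to 1232 and from 3899 to 2030 with only those groups in the fit. EZH2 KO against SUZ12 KO went from 1 to 20 with DESeq2. Leaving out 1 library gave 1169 to 3885 calls in EZH2 KO, 1874 to 4797 in SUZ12 KO (3112 with all), 1053 to 4048 in STAG2 KO, 0 to 1310 in STAG1 KO, 1750 to 2533 in the knockdown, 1 to 4 between EZH2 KO and SUZ12 KO, and 2201 to 5285 and 2509 to 6198 for EZH2 KO and SUZ12 KO against STAG2 KO, so that the shares of all genes called, given beside the members' counts, move with single libraries.

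In the knockdown, same-numbered libraries did not deviate together (correlations 0.0257, 0.0372 and 0.00402), so that the numbers give no pairing. With a replicate block 0 members were called higher and 0 lower, and calls over all genes went from 2476 to 2881. In A673, low counts limit DSC3 and PKP3 in all groups, DSG2 and DSC2 outside the PRC2 KO libraries, and DSP and PERP in most of the other libraries.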
